A study of Mus musculus with 18 samples.

Results

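Chemokines and their receptors were followed in mouse liver as every gene whose name began with Ccl, Cxcl, Ccr or Cxcr and a digit and whose FPKM estimate had the status OK in all 6 groups. The rule took 61 of the 37303 genes in the expression table, of which 43 were ligand entries and 18 were receptor entries. FPKM is the number of sequenced fragments scaled to transcript length and to the number of mapped fragments of the library. Of the 61 members, 32 had an FPKM over 0.5 in at least 1 group (27 ligand and 5 receptor entries), 21 were above 0 but never over 0.5, and 8 were listed at 0 in every group. Just inside the limit were Cxcl5 (highest FPKM 0.606) and Ccl8 (0.607), and just outside it were Ccl17 (0.498) and Ccl19-ps1 (0.428).

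The samples were livers of 18 C57BL/6J mice, 3 in each of 6 groups, aged 8 to 16 weeks by their labels, and poly-A RNA was sequenced. Wild-type mice (WT), mice with a whole-body deletion of Gcn2 (Gcn2-/-) and mice with a whole-body deletion of Atf4 (Atf4-/-) received 8 daily intraperitoneal injections of asparaginase (ASNase, 3 IU per g of body weight), an enzyme drug against leukemia that breaks down asparagine and glutamine in blood, or of phosphate-buffered saline (PBS). By the labels, tissue was taken 7.5 h after the last injection. Each Atf4-/- group and the ASNase-injected WT group had 2 males among 3 mice, while each Gcn2-/- group and the PBS-injected WT group had 1, so sex and group cannot be fully told apart. GCN2 is a kinase activated by uncharged tRNA during amino acid shortage, and its activity raises the translation of the transcription factor ATF4.

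Chemokines are small secreted proteins that bind G-protein-coupled receptors on leukocytes and direct where these cells move. In liver they are made by hepatocytes, Kupffer cells, endothelium and stellate cells, and each family of ligands recruits the leukocytes that carry its receptor. Neutrophils carry CXCR2, inflammatory monocytes carry CCR2, activated T cells and NK cells carry CXCR3, and B cells carry CXCR5.

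The table holds 1 FPKM per group, estimated by Cuffdiff from the 3 libraries together, with a lower and an upper bound that are given here as the interval. Values of single mice were not analysed here, so no p-value is given, and the error of each value is this interval. A change between 2 groups was called for a gene when its FPKM was over 3 in at least 1 of them and above 0 in both, when its log2(FPKM + 0.1) differed by more than 1.5, and the 2 intervals did not overlap. The words rose and fell are used for such calls only. A gene that is over 3 FPKM in only 1 of the 2 groups enters the count through that group, so the share of called members among those over the limit carries no weight of its own. The median interval reached 63.2% of the value on either side for the 60 member values over 3 FPKM, against 52.5% for all genes over 3 FPKM.

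Of the targeted genes, Atf4 was at 50.4 and 63.1 FPKM in WT liver with PBS and ASNase and at 32.3 and 29.3 FPKM in Atf4-/- liver. Eif2ak4, the gene of GCN2, was at 2.31 and 2.96 FPKM in the Gcn2-/- groups against 3.04 and 2.39 FPKM in WT. The Gcn2 deletion removes only part of the gene, and Atf4 was lower in Atf4-/- liver but far above 0, so neither value over the whole gene checks its label, and the groups are named here as labelled. All 10 measured hepatocyte markers were above 0 in every group, with summed FPKM from 12955 to 41119. Markers of tissue outside the liver differed between groups. The 11 skeletal muscle markers summed to 855 and 1228 FPKM in WT liver and to between 10.6 and 156 FPKM in the 4 deletion groups, and the 9 lung epithelium markers summed to 136 FPKM in WT liver with PBS and to no more than 3.49 FPKM elsewhere.

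In PBS-injected WT liver, 2 ligands made up most of the chemokine signal. Cxcl12, the ligand of CXCR4 that retains leukocytes and progenitor cells in tissues, was at 129.9 FPKM, or 46.9% of the summed ligand FPKM, and Ccl9, a ligand of CCR1 on myeloid cells, was at 82.8 FPKM, or 29.9%. The summed FPKM of all 43 ligand entries was 277 in WT liver with PBS and 238 with ASNase, 330 and 711 in Gcn2-/- liver, and 312 and 1047 in Atf4-/- liver. Cxcl1 alone supplied 1.07% of the sum in WT liver with PBS, 30.2% in Gcn2-/- liver with ASNase and 61.3% in Atf4-/- liver with ASNase. The sums over all 18 receptor entries were far lower and lay between 2.82 FPKM in Gcn2-/- liver with ASNase and 7.99 FPKM in Atf4-/- liver with PBS.

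After ASNase, no member changed in WT liver, 6 ligands rose in Gcn2-/- liver and 4 ligands rose in Atf4-/- liver, and no member fell in any of the 3. In WT liver 0 of the 10 members over the FPKM limit were called, against 0.881% of 9084 genes. In Gcn2-/- liver 6 of 15 were called, against 3.69% of 9218 genes in either direction and 1.56% higher. In Atf4-/- liver 4 of 12 were called, against 7.37% of 9485 genes in either direction and 2.74% higher. Cxcl1, Cxcl2 and Cxcl13 rose in both deletions. Ccl2, Ccl3 and Ccl7 were called in Gcn2-/- liver only and Cxcl14 in Atf4-/- liver only, but each of these 4 had a positive difference in both. Over all members, whatever their level, the median difference of log2(FPKM + 0.1) was -0.31 for ligands and -0.05 for receptors in WT liver, 1.09 and -0.38 in Gcn2-/- liver, and 0.16 and -0.65 in Atf4-/- liver. The median over all genes was 0.04, 0.01 and 0.04 in the same order.

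**Figure D1:**
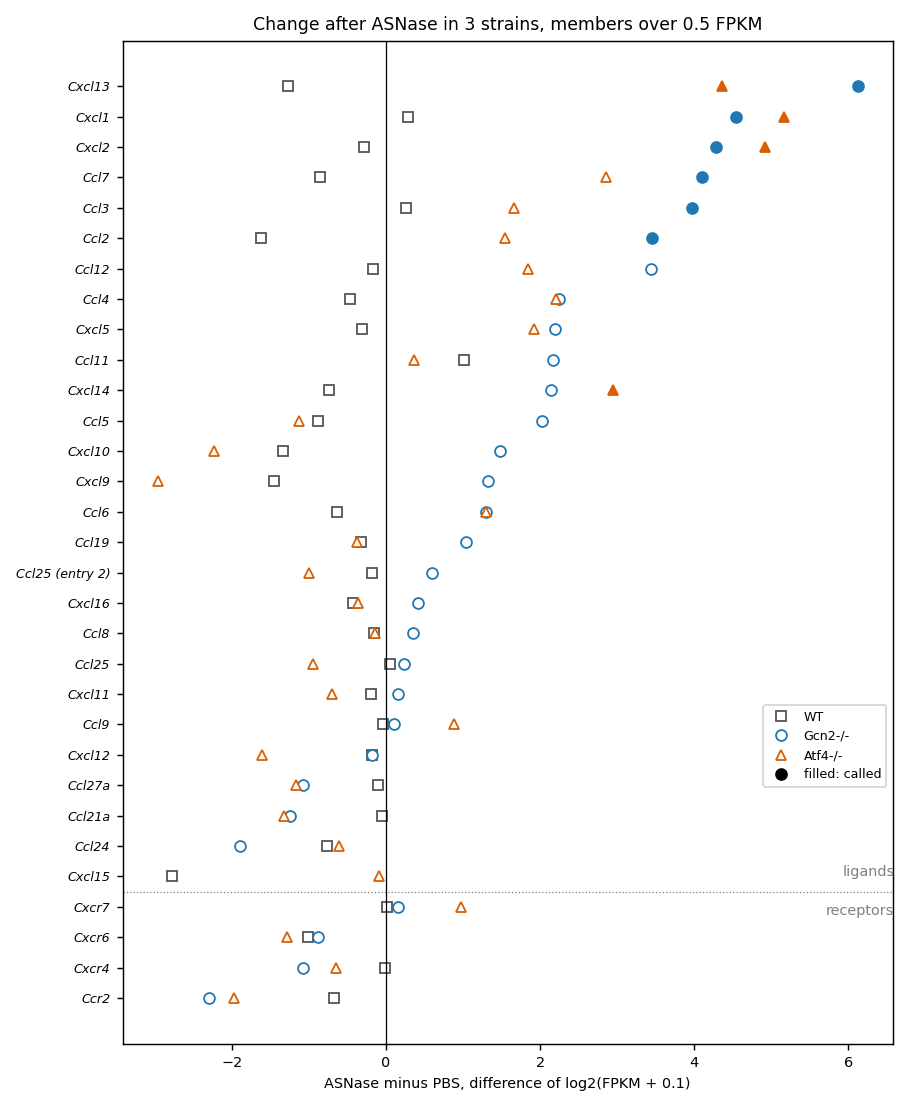
Difference of log2(FPKM + 0.1) between ASNase and PBS (horizontal axis) for members over 0.5 FPKM, with ligands above the dotted line and receptors below it, sorted by the value in Gcn2-/- liver. Squares are WT, circles Gcn2-/- and triangles Atf4-/-; filled symbols mark called members, which number 0, 6 and 4. Cxcl15 has no circle because it was listed at 0 in both Gcn2-/- groups.

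Summed by receptor, the ligands of CXCR2, which attract neutrophils, had the highest FPKM after ASNase in both deletions (219 in Gcn2-/- and 650 in Atf4-/- liver). Cxcl1 supplied 215 and 642 FPKM of these sums, and the other ligands of the receptor were far lower. The genes of these ligands lie together on chromosome 5 (GRCm38, Cxcl5, Cxcl3, Cxcl15, Cxcl1 and Cxcl2 within 147 kb from 90759360 to 90905938). The RefSeq windows for GRCm38.p6 hold the 200 bases before the annotated start of Cxcl1, Cxcl2 and Cxcl3, which are printed because these genes of that cluster had higher values after ASNase in both deletions, next to those of Cxcl10 and Cxcl13, which are described further on. Capitals mark matches to GGAANTTCC, a pattern found in many sites of NF-kappaB proteins that reads the same on both strands.
Cxcl1, chr5:90891045-90891244, plus strand: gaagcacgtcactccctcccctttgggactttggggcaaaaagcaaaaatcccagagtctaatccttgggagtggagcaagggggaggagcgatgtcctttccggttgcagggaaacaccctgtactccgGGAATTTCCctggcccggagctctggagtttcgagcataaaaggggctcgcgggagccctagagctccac
Cxcl2, chr5:90903699-90903898, plus strand: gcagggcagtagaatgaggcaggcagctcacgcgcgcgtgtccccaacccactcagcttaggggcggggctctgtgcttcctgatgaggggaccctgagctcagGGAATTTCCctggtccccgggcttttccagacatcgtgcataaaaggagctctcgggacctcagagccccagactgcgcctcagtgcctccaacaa
Cxcl3, chr5:90785901-90786100, plus strand: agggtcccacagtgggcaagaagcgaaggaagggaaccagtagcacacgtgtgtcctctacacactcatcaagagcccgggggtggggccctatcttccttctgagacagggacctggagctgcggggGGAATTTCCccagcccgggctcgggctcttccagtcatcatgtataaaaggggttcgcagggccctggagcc
Cxcl10, chr5:92348890-92349089, minus strand: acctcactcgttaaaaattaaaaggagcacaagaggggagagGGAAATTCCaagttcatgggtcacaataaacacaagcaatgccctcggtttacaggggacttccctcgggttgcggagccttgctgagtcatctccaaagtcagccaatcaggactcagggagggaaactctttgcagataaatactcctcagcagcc
Cxcl13, chr5:95956739-95956938, plus strand: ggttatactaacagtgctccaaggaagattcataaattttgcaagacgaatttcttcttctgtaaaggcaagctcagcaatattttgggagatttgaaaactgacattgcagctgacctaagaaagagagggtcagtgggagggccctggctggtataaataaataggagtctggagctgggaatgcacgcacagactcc
The pattern was present in 267 of 32851 RefSeq windows of the 250 bases before a start (0.813%) and in 7 of the 39 members that had a window (17.9%), which were Ccl1, Ccl12, Ccr3, Cxcl1, Cxcl2, Cxcl3 and Cxcl10. A wider pattern searched first, GGG and TTCC with any 3 bases between them on either strand, was in 1527 windows (4.65%) and in 9 of the 39 members, so the share depends on the pattern chosen. Ccl3, Cxcl13 and Cxcl14, which rose in 1 or both deletions, had no match to either pattern, and Ccl2 and Ccl7 had no window in the table. A core shared by interferon-responsive elements, GAAANNGAA, was found on either strand in 7.13% of all windows and in 8 of the 39 members (Ccl1, Ccl3, Ccl19, Ccr2, Cxcl9, Cxcl10, Cxcl14 and Cxcr1), and with GAAA as its second arm in 2.98% of windows and in 3 of the 39. A core of combined C/EBP and ATF sites, TGATGNAA, was in 3.45% of all windows and in 1 of the 39 (Ccl27a). These patterns were chosen after the sequences had been seen, and a match describes the letters only. Members with more than 1 window, such as Ccl27a, were counted once. For each pattern the share of members is thus by gene and the share beside it by window.

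Cxcl1, a CXCR2 ligand released by hepatocytes and endothelium early in inflammation, was the most abundant member after ASNase in both deletions. Its FPKM was 2.98 (0.954 to 5.001) in WT liver with PBS and 3.65 (1.31 to 5.99) with ASNase, and the intervals of the pair overlapped almost entirely. In Gcn2-/- liver it went from 9.15 (4.16 to 14.1) to 215 (101 to 328) FPKM, a difference of 4.54 on the log2 scale. In Atf4-/- liver it went from 17.8 (9.33 to 26.2) to 642 (249 to 1034) FPKM, a difference of 5.17. Both ASNase-injected deletion groups therefore stood apart from the other 4 groups, whose highest upper bound was 26.2 FPKM. The Atf4-/- value was 2.99 times the Gcn2-/- value, but their intervals overlapped. Cxcl1 was also called under PBS, where Atf4-/- liver was higher than WT liver by 2.54 on the log2 scale.

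Cxcl2, a CXCR2 ligand produced mainly by macrophages and neutrophils, was near the floor of detection in 4 groups. It was at 0.115 and 0.0752 FPKM in WT liver with PBS and ASNase, and at 0.125 and 0.138 FPKM in Gcn2-/- and Atf4-/- liver with PBS. After ASNase it rose to 4.29 (1.71 to 6.87) FPKM in Gcn2-/- liver and to 7.11 (2.61 to 11.6) FPKM in Atf4-/- liver, differences of 4.29 and 4.92 on the log2 scale. The intervals of these 2 groups overlapped each other and no other group.

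Cxcl5 was at 0.0599, 0.0287, 0.0548 and 0.0754 FPKM in the groups without both deletion and ASNase (WT PBS, WT ASNase, Gcn2-/- PBS and Atf4-/- PBS) and at 0.606 (0.0122 to 1.20) and 0.562 (0.006104 to 1.12) FPKM in ASNase-injected Gcn2-/- and Atf4-/- liver. These intervals reach down to the level of the other groups, and the gene is under the FPKM limit. Cxcl3 did not exceed 0.251 FPKM, its level in ASNase-injected Atf4-/- liver, and was listed at 0 in both WT groups and in Gcn2-/- liver with PBS. Cxcl15, known as lungkine for its expression in lung epithelium, was the one member of the cluster with a different pattern. It was at 0.674 (0.0465 to 1.30) FPKM in WT liver with PBS, at 0.0125 FPKM in WT liver with ASNase, at 0.00614 FPKM in Atf4-/- liver with PBS and at 0 in the other 3 groups. It was highest in WT liver with PBS, where the summed FPKM of the 9 lung epithelium markers was also highest. Scgb1a1 (103.6 FPKM) and Sftpc (23.1 FPKM) made up most of that sum. Scgb3a1 went the other way, with higher values in WT and Atf4-/- liver with ASNase than in WT liver with PBS. Of the 9 markers, 0 were listed at 0 in WT liver with PBS and between 2 and 4 in each of the other groups. Their part in the Cxcl15 value was not tested.

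**Figure D2:**
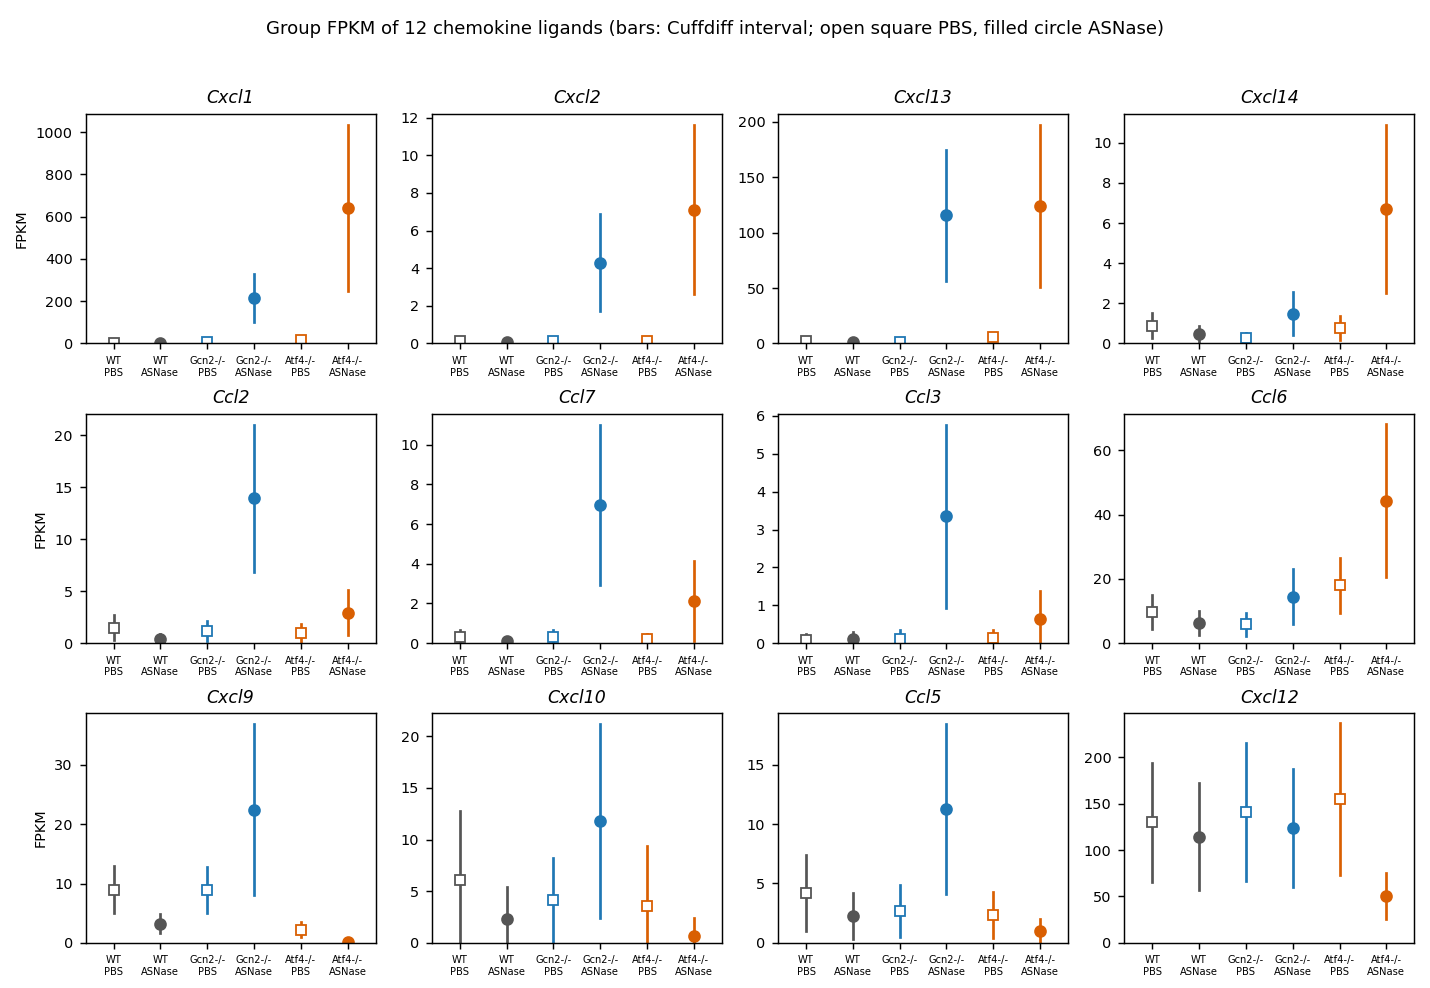
FPKM (vertical axes, linear, each from 0) of 12 ligands in the 6 groups, with PBS as open squares and ASNase as filled circles, and bars for the Cuffdiff interval. Cxcl1, Cxcl2 and Cxcl13 were high in both ASNase-injected deletion groups, Ccl2, Ccl7 and Ccl3 were highest in Gcn2-/- with ASNase, and Cxcl9 and Cxcl10 were highest there and lowest in Atf4-/- with ASNase.

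CXCR2 itself did not exceed 0.172 FPKM, and the summed neutrophil markers were lower after ASNase in every strain, where the summed ligands were higher in both deletions. The 12 neutrophil markers summed to 9.83 and 7.01 FPKM in WT liver with PBS and ASNase, to 13.1 and 4.22 in Gcn2-/- liver, and to 18.9 and 7.89 in Atf4-/- liver. S100a8 and S100a9 made up most of each sum with PBS. After ASNase 10 of the 12 had lower values in WT liver, 9 in Gcn2-/- liver and 9 in Atf4-/- liver, and 1, 3 and 2 had higher values. Ly6g was listed at 0 in 5 of the 6 groups and at 0.105 FPKM in the sixth, Gcn2-/- with PBS. S100a9, a calcium-binding protein abundant in neutrophils, fell in Gcn2-/- liver by 4.41 on the log2 scale, from 5.63 to 0.171 FPKM. Csf3r, the receptor of the granulocyte growth factor, was at 2.43 FPKM in that group, above the 0.964 FPKM of WT liver with PBS. In RNA from whole tissue, fewer cells of a type and less RNA per cell cannot be told apart.

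The ligands of CCR2, which draw monocytes out of bone marrow and into tissue, were highest in Gcn2-/- liver after ASNase. Summed over Ccl2, Ccl7 and Ccl12, they were at 1.92 and 0.636 FPKM in WT liver with PBS and ASNase, 1.61 and 23.2 in Gcn2-/- liver, and 1.28 and 5.80 in Atf4-/- liver. Ccl2 (MCP-1), the main ligand of this receptor, was at 1.498 (0.309 to 2.69) and 0.418 (0 to 0.914) FPKM in WT liver with PBS and ASNase. It rose in Gcn2-/- liver from 1.18 (0.184 to 2.18) to 13.95 (6.87 to 21.04) FPKM, a difference of 3.45 on the log2 scale. In Atf4-/- liver it was at 0.944 (0.0864 to 1.801) and 2.94 (0.7399 to 5.14) FPKM, with overlapping intervals. Among ASNase-injected mice Ccl2 was lower in Atf4-/- than in Gcn2-/- liver by 2.21 on the log2 scale, a call.

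Ccl7 (MCP-3) was likewise highest in ASNase-injected Gcn2-/- liver and next highest in ASNase-injected Atf4-/- liver. It was at 0.299 and 0.1204 FPKM in WT liver with PBS and ASNase, rose in Gcn2-/- liver from 0.312 (0 to 0.685) to 6.98 (2.94 to 11.01) FPKM, and was at 0.208 (0 to 0.485) and 2.13 (0.0974 to 4.16) FPKM in Atf4-/- liver. The Gcn2-/- difference was 4.10 on the log2 scale, while the Atf4-/- difference of 2.86 was not called because the intervals overlapped. Ccl12 (MCP-5), the third of these ligands in the mouse, was under the FPKM limit, at 2.23 (0.321 to 4.15) FPKM in ASNase-injected Gcn2-/- liver, 0.731 (0 to 1.72) FPKM in ASNase-injected Atf4-/- liver and at most 0.133 FPKM elsewhere.

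Ccr2, the receptor, was low where its ligands were high. It was at 0.625 (0.177 to 1.07) and 0.353 (0.0682 to 0.637) FPKM in WT liver, 0.609 (0.197 to 1.02) and 0.0446 (0 to 0.124) FPKM in Gcn2-/- liver and 0.518 (0.138 to 0.899) and 0.0573 (0 to 0.155) FPKM in Atf4-/- liver, each with PBS and ASNase in that order. The 2 intervals did not overlap in Gcn2-/- liver, where the difference was -2.29 on the log2 scale, and overlapped in the other strains. With the FPKM limit at 0.5 in place of 3, Ccr2 was called lower in that comparison, as 1 of 25 members over the limit, against 1.64% of 12833 genes.

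Monocyte markers did not move as a block beside these ligands. The 8 measured markers summed to 109 and 54.5 FPKM in WT liver with PBS and ASNase, 74.1 and 174 in Gcn2-/- liver, and 121 and 58.5 in Atf4-/- liver, with none at 0. Lyz2, the lysozyme of macrophages and granulocytes, made up most of this sum, with 134 FPKM in ASNase-injected Gcn2-/- liver. Itgam, which encodes the CD11b integrin of myeloid cells, rose in Gcn2-/- liver from 0.457 to 5.83 FPKM. Ly6c2, the surface antigen of inflammatory monocytes, was at 1.304 FPKM in WT liver with PBS and at 0.0627 and 0.0345 FPKM in ASNase-injected Gcn2-/- and Atf4-/- liver. The part of these cells in the ligand values was not tested.

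Ccl3 and Ccl4 (MIP-1alpha and MIP-1beta), ligands made by activated macrophages, lie with Ccl5, Ccl6 and Ccl9 within 139 kb of chromosome 11 (83525778 to 83664683). All 5 had a higher value after ASNase in Gcn2-/- liver, 1 of 5 had one in WT liver and 4 of 5 in Atf4-/- liver. Ccl3 was at 0.0823 and 0.118 FPKM in WT liver, rose in Gcn2-/- liver from 0.121 (0 to 0.3496) to 3.35 (0.9405 to 5.77) FPKM, and was at 0.133 (0 to 0.335) and 0.636 (0 to 1.38) FPKM in Atf4-/- liver. The Gcn2-/- difference was 3.97 on the log2 scale and was the only one of the cluster that was called between ASNase and PBS within a strain. Ccl4 was at 2.03 (0.337 to 3.71) FPKM in ASNase-injected Gcn2-/- liver, 0.697 (0 to 1.51) FPKM in ASNase-injected Atf4-/- liver and at most 0.347 FPKM elsewhere.

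Ccl5 (RANTES), a product of T cells and NK cells that attracts further T cells and monocytes, differed between the deletions. It was at 4.21 (0.986 to 7.43) and 2.23 (0.284 to 4.18) FPKM in WT liver with PBS and ASNase, 2.69 (0.512 to 4.88) and 11.3 (4.16 to 18.4) FPKM in Gcn2-/- liver, and 2.36 (0.413 to 4.304) and 1.02 (0.00558 to 2.04) FPKM in Atf4-/- liver. Neither change after ASNase passed the rule within a deletion, but between the ASNase-injected deletion groups Ccl5 was lower in Atf4-/- liver by 3.34 on the log2 scale, with separate intervals.

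Ccl6, a myeloid ligand of CCR1, had its highest value in Atf4-/- liver under each treatment. It was at 9.76 (4.45 to 15.1) and 6.24 (2.46 to 10.02) FPKM in WT liver with PBS and ASNase, 5.84 (2.32 to 9.36) and 14.5 (6.02 to 23.0) FPKM in Gcn2-/- liver, and 18.0 (9.41 to 26.6) and 44.3 (20.5 to 68.1) FPKM in Atf4-/- liver. Atf4-/- liver was higher than WT liver after ASNase by 2.81 on the log2 scale and higher than Gcn2-/- liver under PBS by 1.61, both called. Its intervals overlapped those of WT liver under PBS and of Gcn2-/- liver after ASNase, so these differences were not called. Ccl9 was at 82.8, 80.2, 131, 140.4, 79.3 and 147 FPKM in WT PBS, WT ASNase, Gcn2-/- PBS, Gcn2-/- ASNase, Atf4-/- PBS and Atf4-/- ASNase liver. Its intervals were so wide (13.4 to 280.2 FPKM in the last group) that no order of the groups can be read.

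The ligands of CXCR3, which are induced by interferon and attract activated T cells and NK cells, had values that went in opposite directions in the deletions. Cxcl9, Cxcl10 and Cxcl11 lie within 44.1 kb of chromosome 5 (92321347 to 92365485). After ASNase all 3 had lower values in WT and in Atf4-/- liver and all 3 had higher values in Gcn2-/- liver. Their summed FPKM was 15.9 and 6.29 in WT liver with PBS and ASNase, 14.0 and 35.3 in Gcn2-/- liver, and 6.49 and 1.26 in Atf4-/- liver.

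Cxcl9 (MIG) was the only one of the 3 with called differences. It was at 8.99 (5.095 to 12.9) and 3.21 (1.61 to 4.82) FPKM in WT liver with PBS and ASNase, where the intervals did not overlap but the difference of -1.46 on the log2 scale was inside the limit. In Gcn2-/- liver it was at 8.91 (4.996 to 12.8) and 22.4 (8.04 to 36.8) FPKM, with overlapping intervals. In Atf4-/- liver it was at 2.23 (0.996 to 3.46) and 0.199 (0.0253 to 0.372) FPKM, with separate intervals and a difference of -2.96, although neither value reached the FPKM limit. With that limit at 0.5, Cxcl9 was called lower there, as 1 of 29 members over the limit, against 3.77% of 13144 genes. After ASNase Cxcl9 was higher in Gcn2-/- than in WT liver by 2.77 and lower in Atf4-/- than in WT liver by 3.47 on the log2 scale, and both differences were called. Under PBS it was already lower in Atf4-/- than in WT liver by 1.96.

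Cxcl10 (IP-10) was also highest in ASNase-injected Gcn2-/- liver and lowest in ASNase-injected Atf4-/- liver, with wider intervals. It was at 6.04 (0 to 12.7) and 2.33 (0 to 5.41) FPKM in WT liver with PBS and ASNase, 4.16 (0.0939 to 8.23) and 11.8 (2.37 to 21.1) FPKM in Gcn2-/- liver, and 3.58 (0 to 9.35) and 0.682 (0 to 2.44) FPKM in Atf4-/- liver. Cxcl10 was called in none of the comparisons. Cxcl11, annotated as a polymorphic pseudogene, was between 0.383 and 1.09 FPKM in all groups with overlapping intervals. Cxcr3 was at 0.399 FPKM in WT liver with PBS, 0.226 in WT with ASNase, 0.255 and 0.0903 in Gcn2-/- liver with PBS and ASNase, and 0.256 and 0.0683 in Atf4-/- liver.

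**Figure D3:**
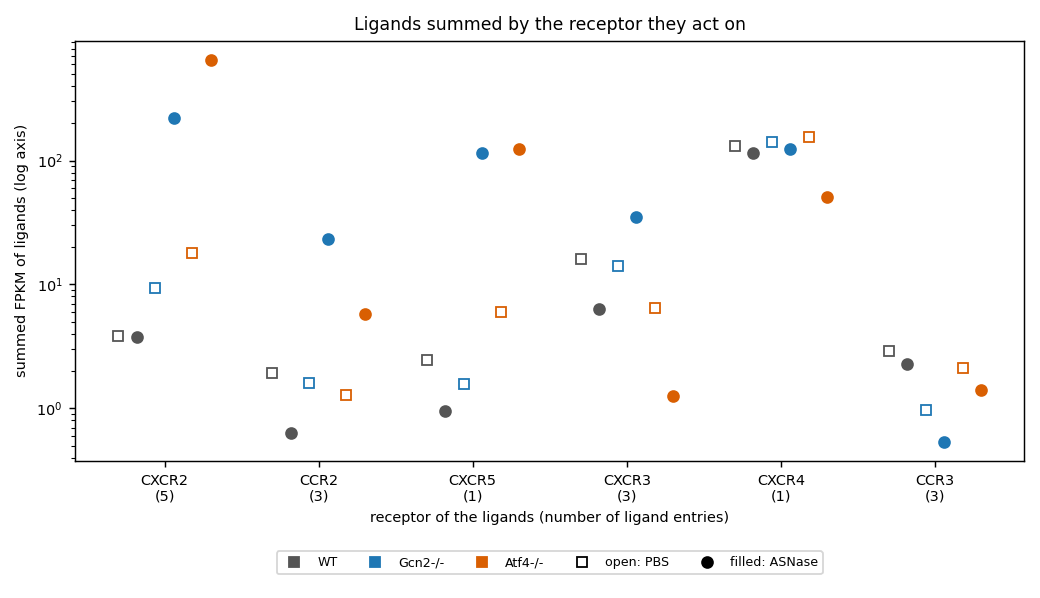
Summed FPKM of the ligand entries of 6 receptors (vertical log axis) in the 6 groups, with PBS as open squares and ASNase as filled circles and the number of ligand entries in brackets. CXCR2 ligands reached 219 and 650 FPKM in ASNase-injected Gcn2-/- and Atf4-/- liver against 3.83 and 3.76 in WT with PBS and ASNase, and CXCR3 ligands reached 35.3 and 1.26 FPKM in the same deletion groups.

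Cxcl13, the ligand of CXCR5 that guides B cells into follicles, had the largest difference of any member after ASNase in Gcn2-/- liver. It was at 2.45 (0.808 to 4.10) and 0.958 (0.194 to 1.72) FPKM in WT liver with PBS and ASNase. It rose in Gcn2-/- liver from 1.56 (0.443 to 2.68) to 116 (56.3 to 175) FPKM and in Atf4-/- liver from 5.96 (2.79 to 9.13) to 124 (51.1 to 197) FPKM, differences of 6.12 and 4.36 on the log2 scale. The levels in the deletions after ASNase differed by less than their intervals, while under PBS Atf4-/- liver was higher than Gcn2-/- liver by 1.86 on the log2 scale. All 7 measured B cell markers had lower values after ASNase in every strain, a sign opposite to that of Cxcl13 in the deletions and the same as in WT liver. They summed to 4.597 and 1.29 FPKM in WT liver, 2.95 and 0.756 in Gcn2-/- liver and 3.87 and 0.477 in Atf4-/- liver, with none at 0. Cxcr5 did not exceed 0.178 FPKM.

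Cxcl12, the most abundant ligand in WT liver, had its lowest value in Atf4-/- liver after ASNase. It was at 129.9 (65.6 to 194) and 115 (57.1 to 172) FPKM in WT liver with PBS and ASNase, 141 (66.7 to 215) and 124 (60.7 to 188) FPKM in Gcn2-/- liver, and 155 (72.7 to 237) and 50.9 (26.1 to 75.6) FPKM in Atf4-/- liver. The last difference, -1.60 on the log2 scale, was past the limit but the intervals overlapped slightly, so it was not called. Cxcl14, a ligand made by epithelia whose receptor is not settled, rose in Atf4-/- liver from 0.786 (0.182 to 1.39) to 6.71 (2.53 to 10.9) FPKM, by 2.94 on the log2 scale. It was at 0.895 and 0.494 FPKM in WT liver with PBS and ASNase and at 0.261 (0.0132 to 0.509) and 1.49 (0.398 to 2.58) FPKM in Gcn2-/- liver, under the FPKM limit. Cxcl16, the membrane-bound ligand of CXCR6, was between 4.41 and 6.74 FPKM in all 6 groups with overlapping intervals.

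The remaining ligands over 0.5 FPKM were not called in any comparison. Ccl24 (eotaxin-2), a ligand of CCR3 on eosinophils made by macrophages, was at 2.59, 1.49, 0.971, 0.187, 2.07 and 1.32 FPKM in WT PBS, WT ASNase, Gcn2-/- PBS, Gcn2-/- ASNase, Atf4-/- PBS and Atf4-/- ASNase liver. After ASNase its interval in Gcn2-/- liver (0 to 0.432 FPKM) lay just below that in WT liver (0.455 to 2.52 FPKM). Ccl11 (eotaxin-1), of the same receptor, was highest in WT liver with ASNase at 0.772 (0.00262 to 1.54) FPKM and was listed at 0 in Gcn2-/- liver with PBS. Ccl8 was between 0.1801 and 0.607 FPKM, and the CCR7 ligands Ccl19 and Ccl21a, which guide dendritic cells and T cells to lymph nodes, were between 0.404 and 1.95 FPKM and between 0.307 and 1.05 FPKM. Ccl25, a CCR9 ligand, was between 2.37 and 4.67 FPKM in its first entry, and a second entry of the same name was between 0.222 and 1.26 FPKM. Ccl27a, a CCR10 ligand, was between 3.57 and 9.94 FPKM with intervals from 0 to as much as 46.7 FPKM. Of the 32 entries over 0.5 FPKM, 12 were estimated by Cuffdiff in a locus shared with other genes (Ccl2, Ccl6, Ccl19, Ccl21a, both Ccl25 entries, Ccl27a, Cxcl10, Cxcl11, Cxcl15, Cxcl16 and Cxcr6), so that reads could have been divided between neighbours.

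Among receptors, none passed the FPKM limit with a call. Cxcr4, the receptor of Cxcl12, was lowest in ASNase-injected Gcn2-/- liver at 0.156 (0 to 0.374) FPKM and highest in PBS-injected Atf4-/- liver at 0.965 (0.0352 to 1.895) FPKM. Cxcr6, which marks liver-resident NK and T cells, was at 0.749 and 0.319 FPKM in WT liver with PBS and ASNase, 0.498 and 0.225 in Gcn2-/- liver, and 0.561 and 0.172 in Atf4-/- liver, with each lower bound at 0. Cxcr7 (now Ackr3), a scavenger of Cxcl12, was between 0.224 and 0.701 FPKM. Another 13 receptor entries did not exceed 0.5 FPKM.

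More receptor entries had lower than higher values after ASNase in every strain, though most did not exceed 0.5 FPKM in any group. After ASNase 12 of 18 receptor entries had a lower value in WT liver, 13 of 18 in Gcn2-/- liver and 15 of 18 in Atf4-/- liver. Over all genes, 9654, 9877 and 10118 had lower values and 11463, 10368 and 11343 higher values in the same order. In WT liver the median difference was -0.05 on the log2 scale for receptors, against -0.73 for the T cell and NK cell markers. All 12 T cell and NK cell markers had lower values after ASNase in every strain, and their sum was 7.04 and 2.78 FPKM in WT liver with PBS and ASNase, 4.99 and 1.87 in Gcn2-/- liver, and 6.03 and 1.48 in Atf4-/- liver. None of these markers passed 3 FPKM, so none could be called, and 1 was listed at 0, in ASNase-injected Atf4-/- liver. The 7 dendritic cell markers summed to between 2.74 and 4.43 FPKM, lowest in ASNase-injected Gcn2-/- liver. The part of these cells in the receptor values was not tested.

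**Figure D4:**
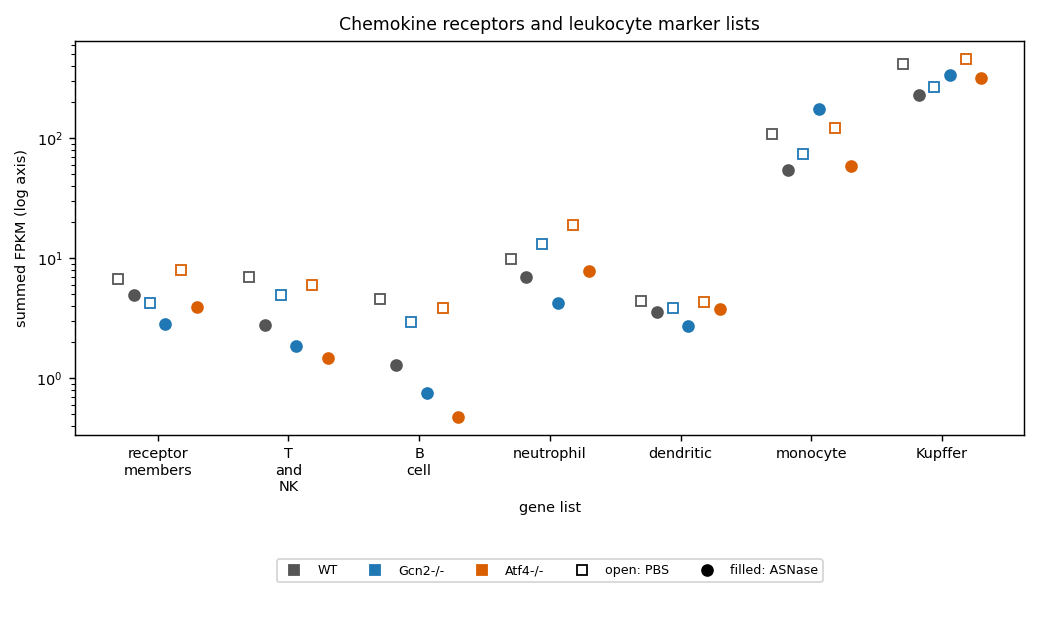
Summed FPKM (vertical log axis) of the 18 receptor members and of 6 lists of leukocyte marker genes in the 6 groups, with PBS as open squares and ASNase as filled circles. The T and NK cell and the B cell sums were lower after ASNase in all 3 strains, as was the receptor sum, while the monocyte sum was higher in Gcn2-/- liver (74.1 to 174 FPKM) and lower in the other strains.

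The strains were then compared under the same treatment. Each comparison with WT liver uses the same WT group, so the counts for the deletions are not independent. With PBS, 0 of 10 members over the FPKM limit differed between Gcn2-/- and WT liver, against 1.04% of 8920 genes, and 2 of 12 differed between Atf4-/- and WT liver (Cxcl1 higher, Cxcl9 lower), against 1.12% of 9039 genes. With ASNase, 7 of 15 were higher in Gcn2-/- than in WT liver (Ccl2, Ccl3, Ccl7, Cxcl1, Cxcl2, Cxcl9 and Cxcl13), against 4.41% of 9423 genes in either direction and 1.83% higher. Atf4-/- and WT liver with ASNase differed in 6 of 11, against 8.25% of 9577 genes, with Ccl6, Cxcl1, Cxcl2, Cxcl13 and Cxcl14 higher (2.59% of genes) and Cxcl9 lower (5.66%). The differences for Cxcl1 were 5.84 in Gcn2-/- and 7.42 in Atf4-/- liver on the log2 scale, and those for Cxcl13 were 6.77 and 6.87.

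Comparing the deletions with each other, which was added after the data had been seen, 3 of 11 members differed under PBS, against 0.976% of 9015 genes. Ccl6 and Cxcl13 were higher and Cxcl9 was lower in Atf4-/- liver. With ASNase, 3 of 16 differed, against 3.19% of 9355 genes, and all 3 (Ccl2, Ccl5 and Cxcl9) were lower in Atf4-/- liver, by 2.21, 3.34 and 6.24 on the log2 scale. The members called in at least 1 of the 9 comparisons were Ccl2, Ccl3, Ccl5, Ccl6, Ccl7, Cxcl1, Cxcl2, Cxcl9, Cxcl13 and Cxcl14. The matching share of all genes was not computed, so their number carries no weight of its own.

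The size of the response was also compared between strains, as the difference of the log2 changes after ASNase set against an error propagated from the 4 upper half-widths. Among the 30 entries over 0.5 FPKM that were above 0 in all groups, the response in Gcn2-/- liver exceeded that in WT liver by more than 1.5 and by more than the error for 12 ligands, against 2.39% of the 13534 genes chosen by the same limits, and was smaller by the same rule for 0 members, against 2.36%. In Atf4-/- liver it did so for 8 ligands, against 2.28% of genes, and was smaller for 1, Cxcl9, against 4.2%. Some of these ligands, such as Ccl3, Ccl7, Ccl12, Cxcl2 and Cxcl5, were over 0.5 FPKM only in ASNase-injected deletion groups. They entered the count through those groups, so these counts carry no weight of their own. Between the deletions, the Atf4-/- response was smaller for Ccl5 (-3.15, error 2.26), Cxcl9 (-4.29, error 1.59) and Cxcl13 (-1.76, error 1.67), against 2.64% of genes, and larger for 0 members, against 1.35%. For Cxcl13 the intervals of the deletions overlapped after ASNase and were separate with PBS. For Cxcl1 the response exceeded that in WT liver by 4.25 (error 1.70) in Gcn2-/- liver and by 4.88 (error 1.72) in Atf4-/- liver.

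Genes that act upstream of chemokine transcription were listed separately, as 17 cytokines, transcription factors and feedback inhibitors. After ASNase 0 of the 9 over the FPKM limit were called in WT liver, against 0.881% of all genes in either direction. In Gcn2-/- liver 6 of 14 over the limit were called higher, against 1.56% of all genes, and in Atf4-/- liver 5 of 14, against 2.74%, with none lower. The 5 shared genes were Relb, Nfkb2, Nfkbiz, Tnfaip3 and Cebpd. Some called genes, such as Relb, Nfkb2 and Tnfaip3, were over 3 FPKM only with ASNase in each deletion. They entered the counts through those groups, so these shares carry no weight of their own. Tnfaip3, the NF-kappaB feedback inhibitor A20, rose in Gcn2-/- liver from 0.652 to 12.8 FPKM and in Atf4-/- liver from 0.893 to 19.7 FPKM, against 1.01 and 0.734 FPKM in WT liver. Cebpd, an acute-phase transcription factor, rose from 3.35 to 25.6 FPKM and from 6.802 to 37.1 FPKM in the same deletions. Il1b, the cytokine interleukin-1beta, rose in Gcn2-/- liver from 2.29 to 11.9 FPKM and was at 4.96 and 6.08 FPKM in Atf4-/- liver. The median difference over the 17 genes was -0.14 in WT liver, 1.98 in Gcn2-/- liver and 0.71 in Atf4-/- liver.

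Of the interferon-linked genes on that list, Irf7, a master regulator of type I interferon, was, like Cxcl9 and Cxcl10, highest in ASNase-injected Gcn2-/- liver and lowest in ASNase-injected Atf4-/- liver. It was at 34.5 and 13.1 FPKM in WT liver with PBS and ASNase, 18.6 and 118 FPKM in Gcn2-/- liver, and 23.1 and 9.16 FPKM in Atf4-/- liver. With ASNase it was lower in Atf4-/- than in Gcn2-/- liver by 3.67 on the log2 scale, a call. Irf1 was between 11.7 and 22.5 FPKM and was called in no comparison, and Ifng, the inducer of Cxcl9, was at no more than 0.0511 FPKM.

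Of 18 genes that carry the chemokine signal inside leukocytes, 11 were over the FPKM limit in Gcn2-/- liver and 3 of these were called higher after ASNase, against 1.56% of all genes. In WT and Atf4-/- liver 9 were over the limit and 0 were called, against 0.881% and 7.37% of all genes in either direction. Among the 3 called in Gcn2-/- liver were the kinase Fgr (0.833 to 3.93 FPKM) and the small GTPase Rac2 (1.74 to 6.71 FPKM), both typical of myeloid cells. Both were over the limit only with ASNase and entered the count through that group, so the share carries no weight of its own. The widely expressed G-protein subunits Gnai2 and Gnai3 did not pass the rule in any comparison and were between 33.1 and 39.6 FPKM and between 30.7 and 39.5 FPKM. Of the chemokine genes outside the name rule, such as Xcl1, Pf4, Cx3cl1 and the decoy receptors, 12 entries were measured and none reached 3 FPKM. Kupffer cell markers summed to 412 and 227 FPKM in WT liver with PBS and ASNase, 269 and 337 in Gcn2-/- liver and 459 and 314 in Atf4-/- liver, with none of the 11 at 0. After ASNase 11 of the 11 had lower values in WT liver, 4 in Gcn2-/- liver and 9 in Atf4-/- liver. Marco, a scavenger receptor of macrophages, rose in both deletions, from 8.32 to 118 and from 9.22 to 67.3 FPKM, while Cd5l, a secreted macrophage protein, fell in Atf4-/- liver from 91.6 to 31.3 FPKM, and no other was called after ASNase in any strain. The part of these cells in the ligand values was not tested.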

How the data were processed

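Liver poly-A RNA of 18 mice was sequenced, and the authors estimated transcript abundance with Cuffdiff over the 3 libraries of each group. The deposited table gives 1 FPKM per gene and group (fragments scaled to transcript length and mapped fragments), with bounds and a status, and these were used as the authors' values. No column lay outside the 6 groups (0 columns), the status was other than OK for 160 of 223818 values, and read depth per library was not used here. Genes were compared as differences of log2(FPKM + 0.1), with the FPKM limit of 3 and the log2 limit of 1.5 of the study's methods, and with non-overlapping intervals in place of its q-value. Before use, the rule for calls was run on simulated data with large changes in well-expressed genes and small noise. That run gives no error rate for the values here. By the rule, members over 0.5 FPKM in any group were named; some genes are not reported here. Members and gene lists were chosen with earlier results of these data known. Positions came from GENCODE M21 (GRCm38), which matched 57 members, and upstream sequences from RefSeq (GRCm38.p6). Python 3.11.15, pandas 2.3.3, numpy 2.4.6 and matplotlib 3.10.9 were used. Promoter patterns were chosen after the sequences were seen, and 2 were shortened after a first search. Pseudocount, limits, interval rule and scaling were varied.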

Additional observations from a re-analysis of the deposited data

How the results depend on the processing

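The counts of called members in the 9 comparisons were recomputed with a pseudocount of 1, an FPKM limit of 0.5, no FPKM limit, a log2 limit of 1, a combined interval (a difference larger than the root of the summed squares of the half-widths) and median-ratio scaling. Only the scaling can change the sign of a difference, because the other settings leave unchanged which value is larger. With median-ratio scaling, an FPKM limit of 0.5 or no limit, all 9 counts stayed within 1.5 times the reported ones. With a log2 limit of 1, 1 member was called in WT liver after ASNase (Cxcl9) in place of 0. With the combined interval, 1 member was called between Gcn2-/- and WT liver under PBS (Cxcl1) in place of 0, and 9 between the deletions under ASNase in place of 3, with Ccl3, Ccl6, Ccl7, Cxcl1, Cxcl10 and Cxcl14 added. With a pseudocount of 1, 1 member was called between the deletions under PBS in place of 3, without Ccl6 and Cxcl13, which follows from the smaller log2 difference that a larger pseudocount gives. A pseudocount of 1 moved 23 of 286 log2 differences of named entries by more than their error and left 263 within it. No paired analysis was possible because the table used here holds 1 value per group, and leaving out each replicate was not run for the same reason. The intervals set what can be seen: for the 130 member values over 0.5 FPKM the median interval reached 82.6% of the value on either side.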
